A study of Rattus norvegicus with 12 samples.

Results

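The 10 genes described here carry long-chain fatty acids into the cells that line the gut, bind them inside the cell, activate them with coenzyme A and coat the droplets in which the resulting fat is stored. They are Cd36 and Slc27a4 (uptake), Fabp1, Fabp2, Dbi and Scp2 (binding), Acsl3 and Acsl5 (activation), and Plin2 and Plin3 (droplet coat). They were taken by gene symbol from the platform annotation, and each had 1 probe, so they are 10 of the 13337 named genes and 10 of the 22523 probes on the array. Messenger RNA was measured in scraped duodenal mucosa of female Sprague-Dawley rats labelled as 9 weeks old, on 12 single-colour Illumina bead arrays. The 6 swimming rats had 1 week of training, up to 1 hour of swimming per day without pause, and swam on 5 days per week for 2 weeks. The 6 control rats were of the same age and stayed sedentary in a pool for 2 weeks. All rats ate regular pellets, the pool water was held at 30 to 32 °C, and a 10 cm duodenal segment of each was scraped. The question, from the title of the series, was how gene expression of the duodenal epithelium responds to endurance swimming.

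Dietary triacylglycerol is split in the gut lumen, and the fatty acids enter the absorptive cells of the villus. There they are bound by small cytosolic carriers, joined to coenzyme A by acyl-CoA synthetases, and rebuilt into triacylglycerol in the endoplasmic reticulum. The new fat leaves in chylomicrons or waits in lipid droplets coated with perilipins. Several genes of this route are known targets of the nuclear receptor PPAR alpha, which pairs with RXR on a direct repeat called DR1. The related factor HNF4 binds repeats of the same kind.

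Among the 10 genes, Fabp1 and Fabp2 were those with a DR1 match in the 250 bases before their RefSeq start site (rat assembly GRCr8). The 150 bases before the start site are shown for both, and for Cd36 and Acsl5 because these varied together most closely across rats (below). Each reads 5′ to 3′ on the gene's + strand, and capitals mark matches to DR1, to a GATA site or to a TATA box. The windows are chr4:104749190-104749339 for Fabp1, chr2:213724479-213724628 for Fabp2, chr4:18246432-18246581 for Cd36 and chr1:264294701-264294850 for Acsl5.
Fabp1: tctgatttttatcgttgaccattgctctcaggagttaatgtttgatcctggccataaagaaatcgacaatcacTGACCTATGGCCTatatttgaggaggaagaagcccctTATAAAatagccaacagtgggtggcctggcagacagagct
Fabp2: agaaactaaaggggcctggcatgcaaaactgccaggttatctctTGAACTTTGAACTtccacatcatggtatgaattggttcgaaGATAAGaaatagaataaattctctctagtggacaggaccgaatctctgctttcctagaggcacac
Cd36: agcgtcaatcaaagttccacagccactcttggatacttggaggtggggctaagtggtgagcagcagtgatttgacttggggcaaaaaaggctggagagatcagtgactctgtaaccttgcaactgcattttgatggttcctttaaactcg
Acsl5: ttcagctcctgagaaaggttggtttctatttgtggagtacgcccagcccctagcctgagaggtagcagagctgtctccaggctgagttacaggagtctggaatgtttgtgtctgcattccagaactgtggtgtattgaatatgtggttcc

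The DR1 search used AGGTCANAGGTCA on both strands with up to 2 mismatches, and 3.11% of the 27457 rat promoters of the same length held a match. In Fabp1 the match lay from -77 to -65 before the start site with 1 mismatch, and in Fabp2 from -106 to -94 with 2 mismatches. GATAAG, searched on both strands, was found in 3 of the 10 promoters (Fabp1, Fabp2 and Scp2) and in 6.08% of all. TATAAA on the gene's strand was found in Fabp1 and Acsl5 and in 8.38% of all, with the Acsl5 match outside the stretch shown. TTTATG, a CDX-type site searched on both strands, was found in 1 of the 10, Fabp1, at -98 to -93, and in 11.2% of all. An HNF1 palindrome with up to 2 mismatches (1.12% of all) and the sterol element TCACNCCAC (0.976%) were found in none of the 10. No motif hits overlapped one another. A match describes letters only, and binding was not measured here.

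Before the groups are compared, 2 features of the arrays bear on every value. First, the array labelled swimming 5 read unlike duodenum. Of the proximal small intestine markers measured, 8 of 8 were lower there than anywhere else by over 1 log2, with the list mean at 6.23 against 12.11 to 12.77, while 4 of 8 large intestine markers were higher by that margin. Alpi, a brush border phosphatase, differed by -8.84 from the mean of the other arrays, and Car1, a colonic carbonic anhydrase, read 14.93 against at most 8.82. Not every large intestine marker rose. Aqp8 read 10.96 against 8.92 to 11.44 and Scnn1g 6.83 against 6.68 to 7.12, both within the range of the other arrays. The mean over 7 epithelial markers shared along the gut lay within the range of the other arrays (13.91 against 13.76 to 14.06), but its members went both ways. The transcription factor Cdx2 read 10.78 against 9.16 to 9.71, above each other array by over 1 log2, while Vil1, which encodes villin, differed by -1.02. Second, 3 pairs of arrays were near-identical, with a spread of log2 differences over bright probes of 0.077 to 0.159, against at least 0.218 in the other 52 pairs without swimming 5. They were control 3 with swimming 3, which spans the comparison, control 4 with control 6, and swimming 4 with swimming 6. The last 2 pairs were each counted as 1 sample in every mean ± SD. The limma fits counted each array separately, except where averaging is stated. Nothing says which rat stands behind each array beyond its title, so p-values measure the spread between these arrays.

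All 10 genes were bright on the array, with a mean brightness above that of 89.7% of probes or more. Fabp1, Fabp2 and Dbi lay above 99.9%, 99.9% and 99.8% of probes. Values below are normalised log2 intensities, and differences are swimming minus control on that scale. In scraped mucosa, fewer cells of a type and less RNA per cell cannot be told apart.

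Array swimming 5 was the lowest of the 12 arrays for 9 of the 10 genes, and for 6 of them by more than 1 log2. That margin was seen in 1.9% of all probes and in 3.79% of the 11261 probes brighter than the median probe. Most of those 11261 probes were dimmer than all 10 genes, and a share matched in brightness was not computed. Cd36 read 6.40 in swimming 5 against 9.73 to 11.73 in the other 11 arrays. That is a difference of -4.55 log2 from their mean, or 23.4-fold, and puts it at about the level of the median probe (6.36). Its raw intensity of 82.4 was close to the median of that array (80.5), so the fold understates the gap.

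Acsl5 read 9.74 against 13.04 to 13.74, a difference of -3.63 log2 from the mean, or 12.3-fold. The difference from the mean of the others was -2.38 for Plin3, -2.20 for Plin2, -2.12 for Fabp2 and -1.64 for Slc27a4. These 6 genes are the ones with a margin over 1 log2 to the next array. Scp2 (-1.30 from the mean) and Fabp1 (-0.93) were lowest by a smaller margin. Dbi differed by -0.28 from the mean and by -0.034 from the next lowest array. Acsl3, at 9.18, stayed above control 5 (9.11). The gap thus ran from 1.21-fold for Dbi to 23.4-fold for Cd36, in the array where the duodenal markers also read lowest. A single array allows no test, so group values are given with and without it.

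**Figure D1:**
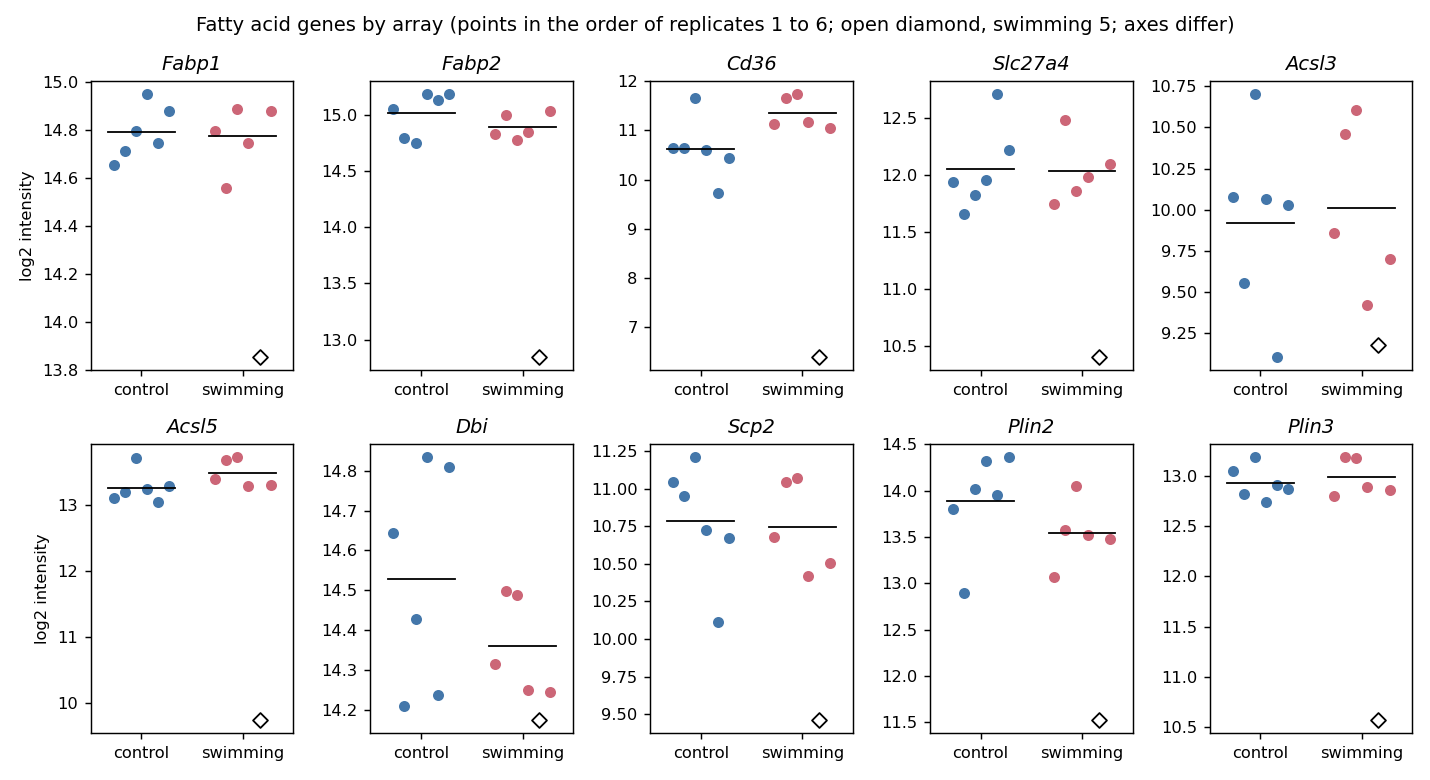
Normalised log2 intensity of each of the 10 genes in the 6 control and 6 swimming arrays. Each point is 1 array, lines are means without swimming 5, the open diamond is swimming 5, and each panel has its own axis. Swimming 5 is the lowest point for every gene except Acsl3, and Cd36 in the other swimming arrays lies between 11.05 and 11.73.

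Swimming and control rats did not differ past the threshold in any of the 10 genes. With all arrays, limma called 0 of the 10 genes after Benjamini-Hochberg adjustment over all probes, as it called 0.0% of probes, and 0 of 10 had an unadjusted p under 0.05, against 4.78% of probes. Without swimming 5 it again called 0 of 10 (0.0% of probes), and 1 of 10, Cd36, had an unadjusted p under 0.05, against 5.05% of probes. With all arrays all 10 genes read lower in the swimming group, with a median difference of -0.27 against -0.0015 over all probes. Without swimming 5, 4 read higher and 6 lower, and the median was -0.017 against -0.0033 over all probes. The one-way direction of the full comparison therefore went with that array. The group ranges of the remaining 11 arrays overlapped for all 10 genes, and 0.377% of probes had ranges that did not overlap.

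**Figure D2:**
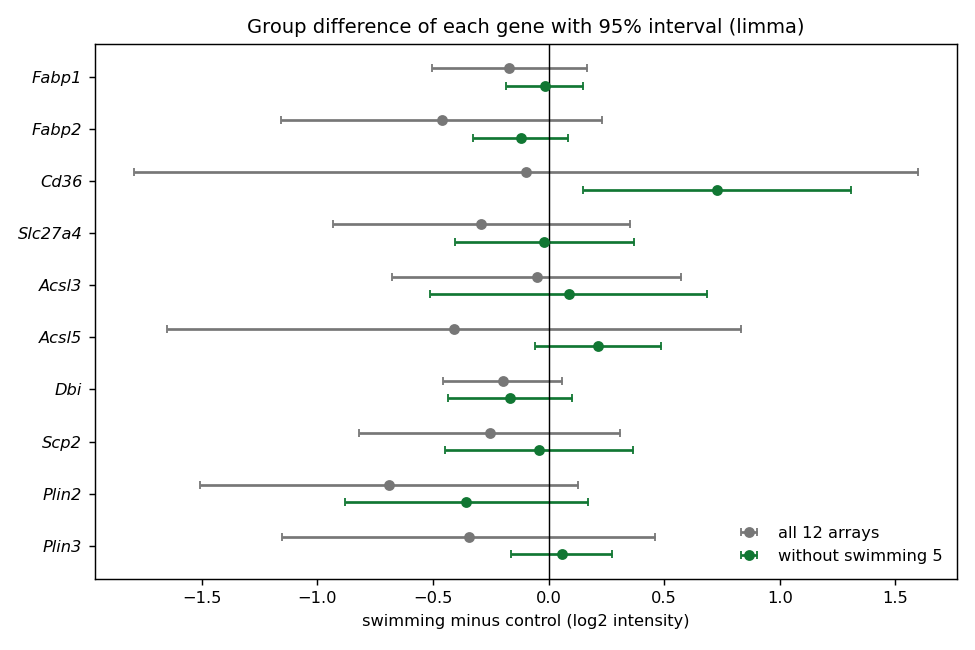
Fitted difference, swimming minus control in log2 intensity, for each gene with its 95% interval from limma, with all 12 arrays in grey and without swimming 5 in green. Near-identical arrays count separately here. Every grey interval includes 0, and of the green ones only that of Cd36, from 0.15 to 1.31, lies on one side of 0.

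Cd36 encodes a membrane receptor that takes up long-chain fatty acids in the gut, fat, muscle and macrophages. The control arrays read 10.64, 10.64, 11.66, 10.61, 9.73 and 10.43 in the order of their numbers. Swimming 1, 2, 3, 4 and 6 read 11.13, 11.65, 11.73, 11.17 and 11.05, and swimming 5 read 6.40. Except for control 3, every control array lay below those 5 swimming arrays, and control 3 is near-identical to swimming 3. The share of all probes that separate once control 3 is set aside was not computed.

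The Cd36 mean was 10.64 ± 0.69 in control (SD, n = 5) and 11.41 ± 0.33 in swimming rats without swimming 5 (n = 4). The limma fit counted the 11 arrays separately and gave a difference of 0.73 (SE 0.27, 95% interval 0.15 to 1.31), or 1.66-fold. Its unadjusted p was 0.0177 and its adjusted p 0.890 in limma. With near-identical arrays of a group averaged, the difference was 0.77. With all arrays it was -0.097 (SE 0.78, adjusted p = 0.990), so 1 array turned its direction. A restricted comparison left out swimming 5 and the pair that spans the groups and averaged the other pairs, leaving 4 control and 3 swimming samples. There the Cd36 samples did not overlap, at 9.73 to 10.64 in control and 11.11 to 11.65 in swimming rats, a pattern shown in the upward direction by 2.41% of probes. Its difference was 0.91 (SE 0.25, limma adjusted p = 0.993).

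Cd36 was highest in control 3, swimming 2 and swimming 3, between 11.65 and 11.73. The same arrays were the highest for digestive enzyme genes made by pancreatic acinar cells, with means over the 12 measured genes of 9.57, 10.77 and 9.57, against 6.50 to 7.71 elsewhere. Without these 3 arrays and swimming 5, Cd36 was 0.71 higher in the swimming group (SE 0.20, limma adjusted p = 0.621). It read 9.73 to 10.64 in 5 control and 11.05 to 11.17 in 3 swimming arrays. That fit counted the near-identical arrays control 4 and 6, and swimming 4 and 6, separately. The share of all probes without overlap in it was not computed. These arrays were left out after the data were seen, and the part of pancreatic RNA in the Cd36 values was not tested.

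Cd36 is also made outside the epithelium, and markers of such cells were read beside it. All 5 measured endothelial markers read higher in swimming rats without swimming 5, with a list mean of 6.96 to 7.18 against 6.62 to 7.01 in control arrays. Aqp1, a water channel, differed by 1.12 (SE 0.22, limma adjusted p = 0.890), and the rest by 0.04 (Tek) to 0.17 (Cldn5). The defining markers Cdh5 and Tek were dimmer than the median probe. All 7 stromal markers also read higher (list mean 7.12 to 7.76 against 6.51 to 7.68). Of 7 adipocyte markers 5 read higher (list mean 7.97 to 8.09 against 7.74 to 8.11). Pck1 differed by 1.40 (SE 0.37, limma adjusted p = 0.890), and the rest by -0.099 (Cfd) to 0.11 (Lpl). The defining genes Adipoq, Lep and Retn were all dimmer than the median probe. Of 5 macrophage markers 2 read higher (6.95 to 7.19 against 6.81 to 7.44). Their part in the Cd36 difference was not tested. RefSeq also lists Cd36l1 and Cd36-ps1 on the same chromosome, and whether the probe tells these copies apart was not tested.

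Slc27a4 encodes FATP4, a fatty acid transport protein with acyl-CoA synthetase activity. It read 11.66 to 12.71 in control arrays (median 11.95) and 11.75 to 12.48 in swimming arrays other than swimming 5, at 10.40. The difference without swimming 5 was -0.019 (SE 0.18, interval -0.41 to 0.37), and with it -0.29 (SE 0.30). The groups overlapped throughout, and control 5 was the highest array. Control 5 was at the same time the lowest of the 11 arrays for Cd36, Scp2, Acsl3 and Acsl5.

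Fabp1 and Fabp2 encode the liver-type and the intestinal fatty acid-binding proteins, both abundant in enterocytes. Liver-type Fabp1 read 14.66, 14.72, 14.80, 14.95, 14.75 and 14.88 in control 1 to 6, and 14.80, 14.56, 14.89, 14.75 and 14.88 in swimming 1, 2, 3, 4 and 6. The difference without swimming 5 was -0.016 (SE 0.076) with an interval of -0.18 to 0.15, the narrowest of the 10 genes. Its spread was small too, since only 15.5% of bright probes had a lower SD over the 8 independent profiles that remain when swimming 5 is left out and near-identical arrays are averaged.

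Intestinal Fabp2 read 15.05, 14.80, 14.75, 15.18, 15.13 and 15.18 in control 1 to 6, and 14.83, 14.998, 14.78, 14.84 and 15.03 in the 5 swimming arrays. It differed by -0.12 without swimming 5 (SE 0.095, interval -0.33 to 0.086) and by -0.46 with it (SE 0.32). Across the 8 profiles Fabp1 and Fabp2 did not vary together (Pearson r of 0.0040). In swimming 5 they parted further, with Fabp1 1.91-fold and Fabp2 4.34-fold below the mean of the other arrays. Both probes are among the brightest on the array, and whether their signal was compressed near the top of the scale was not tested.

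Dbi encodes the acyl-CoA-binding protein, which holds activated fatty acids. It read 14.21 to 14.84 in control arrays (median 14.54), and 14.32, 14.50, 14.49, 14.25 and 14.25 in swimming 1, 2, 3, 4 and 6. The highest 3 arrays were controls 4, 6 and 1, while control 2 and control 5 read lower than all 5 of these swimming arrays. The difference was -0.17 without swimming 5 (SE 0.12, limma adjusted p = 0.891), and -0.20 (SE 0.12) with it, so Dbi was among the genes that this array moved least. With near-identical arrays averaged it was -0.081 without swimming 5.

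Scp2 encodes sterol carrier protein 2 and a peroxisomal thiolase form, which handle sterols and fatty acyl-CoA. It read 10.11 to 11.21 in control and 10.42 to 11.07 in the 5 swimming arrays. The difference was -0.041 without swimming 5 (SE 0.19, interval -0.45 to 0.37) and -0.26 with it (SE 0.26). Dbi, Scp2 and Plin3 have pseudogenes in the RefSeq table, and whether their probes read those copies was not tested.

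Acsl5 and Acsl3 encode long-chain acyl-CoA synthetases, Acsl5 being the chief form of the villus and Acsl3 a form linked to the growth of lipid droplets. Acsl5 read 13.11, 13.20, 13.72, 13.25, 13.04 and 13.29 in control 1 to 6 and 13.40, 13.69, 13.74, 13.30 and 13.30 in swimming 1, 2, 3, 4 and 6. As for Cd36, all controls other than control 3 lay below these 5 swimming arrays, in this case narrowly (13.294 in control 6 against 13.297 in swimming 4). The share of all probes with such a pattern was not computed. The difference was 0.21 without swimming 5 (SE 0.13, interval -0.058 to 0.49, limma adjusted p = 0.890) and -0.41 with it (SE 0.57).

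In the restricted comparison Acsl5 ranged from 13.04 to 13.27 in control and from 13.30 to 13.69 in swimming samples, a difference of 0.31 (SE 0.11, limma adjusted p = 0.993). Cd36 and Acsl5 were the 2 of 10 genes without overlap there, against 5.08% of probes in either direction. They were also the 2 of 10 with an unadjusted p under 0.05, against 3.26% of probes, while 0 of 10 and 0.0% of probes were called. Without swimming 5 and the 3 arrays richest in pancreas genes, the Acsl5 difference was 0.15 (SE 0.081, arrays counted separately). Those 3 arrays read 13.69 to 13.74.

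Acsl3 read 10.08, 9.56, 10.70, 10.06, 9.11 and 10.03 in control and 9.86, 10.46, 10.60, 9.42 and 9.70 in swimming 1, 2, 3, 4 and 6. The groups lay on top of each other, with a difference of 0.087 without swimming 5 (SE 0.28, interval -0.51 to 0.68). Its spread between rats was wide, with an SD over 8 profiles above that of 94.4% of bright probes. The 3 arrays richest in pancreas genes were again the highest, at 10.46 to 10.70.

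Plin2 and Plin3 encode coats of cytosolic lipid droplets, known in mouse enterocytes to mark droplets after fat feeding. Plin2 read 13.80, 12.90, 14.01, 14.32, 13.96 and 14.36 in control and 13.07, 13.57, 14.05, 13.52 and 13.48 in swimming 1, 2, 3, 4 and 6. The mean was 13.80 ± 0.54 in control (SD, n = 5) and 13.55 ± 0.40 in swimming rats without swimming 5 (n = 4). Of those 5 swimming arrays 4 lay below the control mean, while the lowest of all 11 arrays was control 2. The fitted difference, with arrays counted separately, was -0.36 without swimming 5 (SE 0.24, interval -0.88 to 0.17, limma adjusted p = 0.890). With near-identical arrays averaged it was -0.26. With swimming 5 the fitted difference was -0.69 (SE 0.38, limma adjusted p = 0.911). Its unadjusted p in limma, 0.0915, was the smallest among the 10 genes in the full comparison.

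Plin3 read 12.74 to 13.19 in control and 12.80 to 13.19 in the 5 swimming arrays, almost the same span. Its difference was 0.056 (SE 0.10, interval -0.16 to 0.27). The group ranges of both perilipins overlapped.

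**Figure D3:**
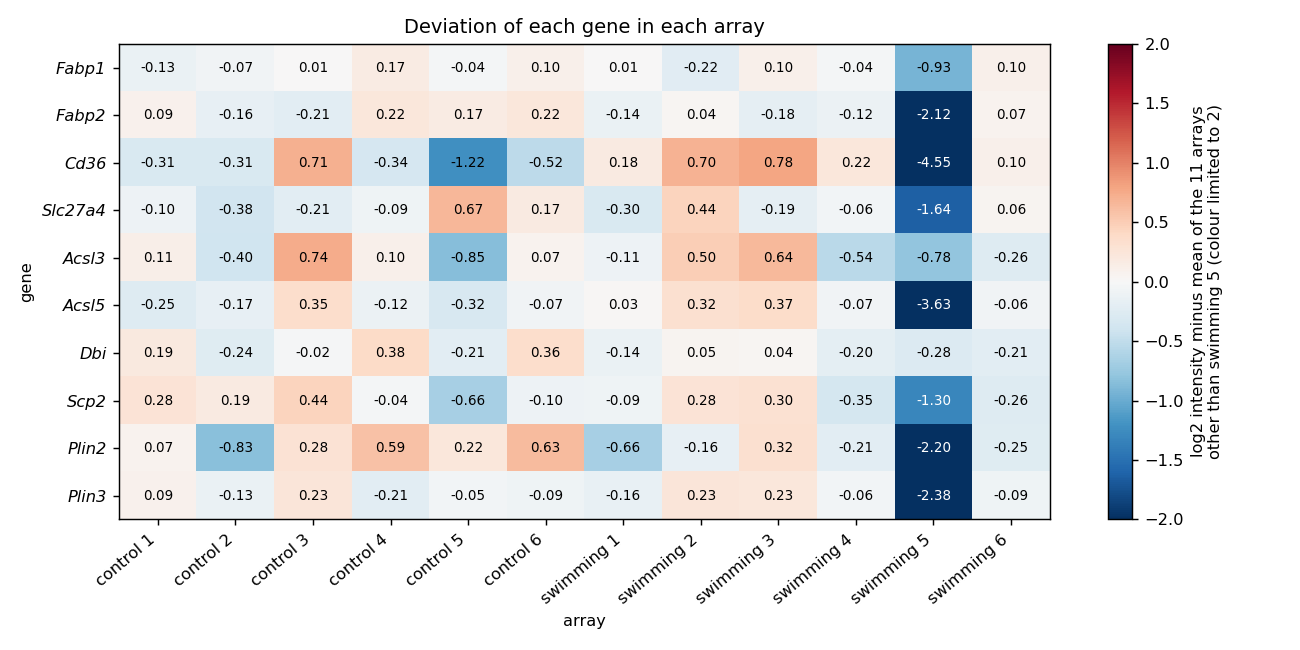
Deviation of each gene in each array from its mean over the 11 arrays other than swimming 5, in log2, with the value printed in each cell and colour limited to 2. Cd36, Acsl3, Acsl5, Scp2 and Plin3 are raised together in control 3, swimming 2 and swimming 3, and swimming 5 is below that mean in every row.

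Across rats the 10 genes did not move as one block. Over the 8 profiles, which share normalisation and so are described without a p, Cd36 and Acsl5 had the highest Pearson r of all gene pairs, 0.92. Acsl3 followed both, at 0.82 with Acsl5 and 0.81 with Cd36, and Scp2 correlated with Acsl3 at 0.84. Cd36, Acsl5, Acsl3 and Scp2 all read highest in the 3 arrays richest in pancreas genes, and r without those arrays was not computed. Slc27a4 and Fabp2 (0.68) and Plin2 and Dbi (0.68) were other pairs. The lowest r was -0.61, between Fabp2 and Cd36. Over all 12 arrays that pair had an r of 0.81, since swimming 5 is low for both. Cd36 was the most variable of the 10, with a range of 1.97 log2 over the 8 profiles, and Fabp1 the least, with 0.36.

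The genes most like each member over these 8 profiles were sought among 7858 named bright genes, where high values arise easily from so few points. Plin2 was closest to Srebf1, the lipogenic regulator SREBP-1 (r of 0.99), then to Jun and Sacm1l. Scp2 was closest to Sqle, squalene epoxidase of cholesterol synthesis (0.98), then to Lactb2 and Ap3s1. Cd36 was closest to Clrn3, Akr1c14 and Ssr3 (each 0.96), and Acsl5 to Atl2, Slc39a8 and Stk35 (0.96 to 0.97). Acsl3 was closest to Uba3, RT1-Da and Etfa, Fabp2 to Tap1, Ppp2r2d and Thra, and Fabp1 to Htr1d, Plekhf2 and Mycbp2. Slc27a4 was closest to Mfsd13a, Ppfia4 and Erbb2, Dbi to Sat1, Slco1a5 and Orc4, and Plin3 to Nmi, Bet1 and Krt36.

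Other genes of uptake, binding and activation also gave no call. Of 23 measured of 28 listed, 11 read higher and 12 lower without swimming 5 (median -0.0095), and 14 and 9 with it, and 0 passed. Fabp6, the ileal bile acid-binding protein, differed by 0.44 without swimming 5 (SE 0.16) and 0.61 with it (SE 0.21). Acot1, an acyl-CoA thioesterase, differed by 0.81 (SE 0.45) and 0.77, with a range of 6.30 to 8.92 over the 11 arrays. Acbd4, an acyl-CoA-binding protein, differed by -0.24 and -0.60, and Slc27a6, a fatty acid transport protein, by 0.10 and 0.23. Their adjusted p in limma was at least 0.890 without swimming 5.

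In the list of triacylglycerol re-esterification and droplet turnover, 22 of 26 genes were measured, 11 read higher and 11 lower without swimming 5 (median 0.0018), and 0 passed. Those with the smallest p in the full comparison read lower. They were Agpat3 (-0.20 without and -0.32 with swimming 5), Lpin1 (-0.13 and -0.20), Abhd5 (-0.21 and -0.31) and Lpin2 (-0.21 and -0.44). Dgat1, which makes triacylglycerol in enterocytes, was level between groups (0.039 without swimming 5, SE 0.11). It read 10.34 in swimming 5 against 13.89 to 14.44 elsewhere, a gap close to that of Acsl5. Dgat1 and Cidec, a droplet-fusion protein that differed by 0.50 without swimming 5 (SE 0.24, limma adjusted p = 0.890), were picked after their values were seen.

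Among lipid-sensing regulators, 10 of 13 measured read lower without swimming 5 (median -0.13 against -0.0033 over all probes), and 0 passed. Ppard differed by -0.28 (SE 0.15), Nr1h3, the oxysterol receptor LXR alpha, by -0.32 (SE 0.17), Rxra by -0.15 and Ppara by -0.10. Creb3l3, a membrane-bound factor of liver and gut lipid metabolism singled out after its values were seen, went the other way, at 0.56 (SE 0.17, limma adjusted p = 0.890). It read 6.45 in swimming 5 against 11.34 to 12.51 elsewhere, so that in swimming 5 it was, like Cd36, near the level of the median probe.

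Of PPAR alpha targets outside the 10 genes, 7 of 13 measured read higher without swimming 5 and 6 lower (median 0.047), and 0 passed. Cpt1a, which opens mitochondrial fatty acid oxidation, differed by 0.37 without swimming 5 (SE 0.12) and by 0.45 with it (SE 0.14, limma adjusted p = 0.911). Slc25a20, the carnitine carrier that works beside it, differed by -0.31 and -0.39, Vnn1 by -0.22 and -0.70, and Acaa1a by -0.16 and -0.16. The adjusted p of each was at least 0.890 in limma.

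**Figure D4:**
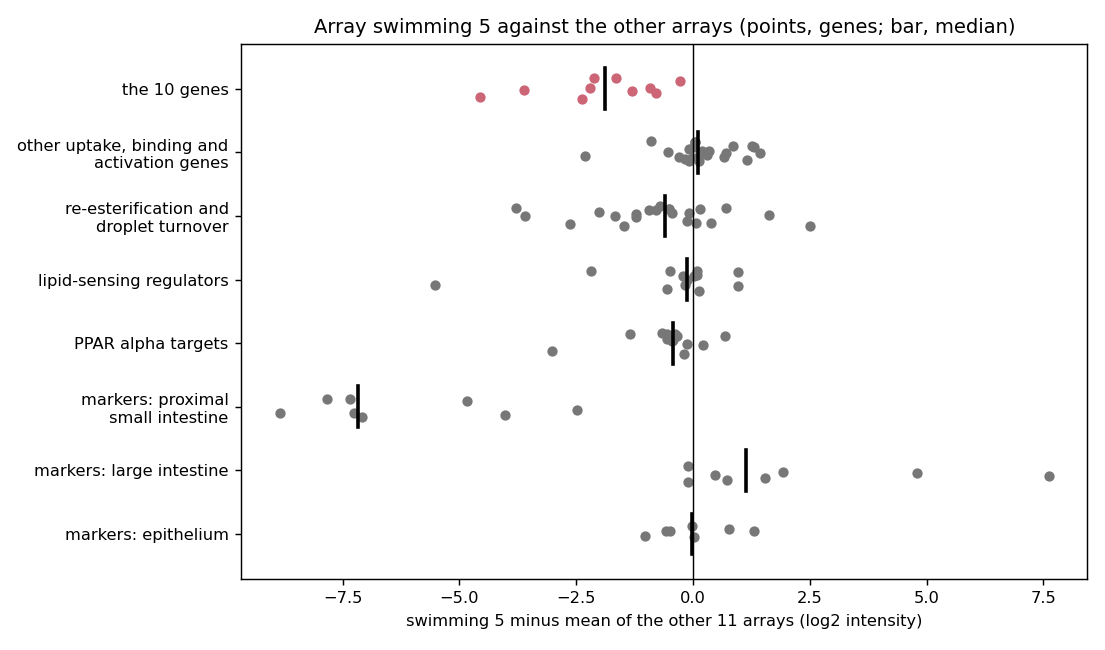
Log2 intensity in array swimming 5 minus the mean of the other 11 arrays for the 10 genes (red), 4 lists of lipid genes and 3 lists of markers (grey). Each point is a gene, and the bar is the median. The 10 genes have a median of -1.88, between the proximal small intestine markers at -7.17 and the other uptake, binding and activation genes at 0.11.

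The median difference of swimming 5 from the other arrays was -1.88 for the 10 genes, and 6 of 10 were lower by the 1 log2 margin. It was 0.11 for the other genes of uptake, binding and activation (1 of 23 lower by that margin) and -0.61 for re-esterification (5 of 22). For the PPAR alpha targets it was -0.43 (1 of 13), and for the lipid-sensing regulators -0.13 (2 of 13). The lists are not matched in brightness. All 10 genes were brighter than the median probe, but only 13 of the 23 other genes of uptake, binding and activation were. The bright genes were 19 of 22 for re-esterification, 13 of 13 PPAR alpha targets and 12 of 13 regulators. A dim probe has little room to read lower, and the part of brightness in these medians was not tested. The median over all bright probes was 0.0074. These are descriptions of 1 array, with no test of the differences between lists.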

How the data were processed

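Total RNA of 12 scrapings was amplified to biotin-labelled cRNA, per the labels' protocols, and hybridised to 1 bead array each. The deposited raw table holds linear intensity values per probe (average signal, per the file headers), with array medians of 62.7 to 88.8. The authors also deposited a table of processed intensity values with 26.2 to 26.3% below 0 and a median of 16.0 in each array. How these were made is not stated by the labels or headers. The number of arrays limits precision.

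Raw intensities were corrected with normexp (offset 50), quantile-normalised and put on a log2 scale, and all 22523 probes were tested with limma 3.58.1 in R 4.3.3 (lmFit, eBayes, two-sided, Benjamini-Hochberg over all probes, calls at adjusted p under 0.05), with and without swimming 5. Symbols came from the platform annotation, matched by identifier to RefSeq for 13752 of 13793 probes with no change; 8730 probes are unnamed here. Promoters came from RefSeq (GRCr8) and matched 10 of 10 genes. The code was tested on simulated data with independent noise in each array. Those data held no near-identical pairs and no outlying array. Pairs of arrays were called near-identical from the spread of their log2 differences over 4869 bright probes set against that over 5192 dim ones.

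The genes and lists were chosen with earlier results of these data known. Genes outside the 10 were named by a rule, up to 4 per list with the smallest p among bright probes and the 3 most correlated genes for each of the 10. Exceptions are marked, apart from Vil1 and the dim defining markers Cdh5, Tek, Adipoq, Lep and Retn, which were named after their values were seen. Alternatives covered background, normalisation, moderation, filters, replicates left out and the replicate block.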

Additional observations from a re-analysis of the deposited data

Results flagged for a closer look

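In the swimming group, counted as 5 samples, the array swimming 5 stood far below the others for 4 of the 10 genes, with a gap above Dixon's 95% critical value. It read 12.84 for Fabp2, 6.40 for Cd36, 9.74 for Acsl5 and 10.57 for Plin3. The 20 sets examined, 2 groups for each of 10 genes, gave 4 such values, all in swimming 5. That array was already known to read unlike duodenum, so the nominal rate of 1 in 20 is no baseline for them. They are readings of 1 array that had already been set apart, so they do not count as separate observations. The same array read low for the proximal small intestine markers (6.23 on average, against 12.11 to 12.77).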

How the results depend on the processing

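Limma called 0 of 22523 probes in the full comparison (1076 at an unadjusted p under 0.05) and under 28 alternatives. A further one, without swimming 5 and the 3 arrays highest in pancreas genes, was chosen after the data were seen and called 2, Smoc2 and an unnamed probe. No alternative called any of the 10 genes. Over 230 values set against the full comparison, some from fits without swimming 5, their limma adjusted p ranged from 0.627 to 1.0. The lowest was that of Cd36 under the replicate block without swimming 5. Over 80 values set against the comparison without swimming 5 the range was 0.543 to 1.0. Direction held in 211 and 68 of these values and turned in 19 and 12. Among the 19 were turns of Cd36, Acsl5 and Plin3 in every one of the fits without swimming 5. The cause of the turns was not tested.

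In the full comparison, leaving out 1 array gave -0.34 to 0.73 for Cd36, -0.21 to 0.10 for Acsl3, -0.58 to 0.21 for Acsl5 and -0.47 to 0.056 for Plin3. Median scaling turned Cd36 to 0.0042 and Acsl3 to 0.091, and averaging near-identical arrays turned Acsl3 to 0.035. The restricted comparison gave 0.91 for Cd36, 0.26 for Acsl3, 0.31 for Acsl5, 0.028 for Scp2 and 0.060 for Plin3. Deviations of same-numbered arrays correlated at -0.023 to 0.73, above 0.1 in 3 of 6 pairs and highest in the near-identical pair, so the numbers were not taken to pair the rats. The replicate block changed no call (1052 probes at an unadjusted p under 0.05). Without swimming 5 the block gave 1735 such probes against 1137, and relative to that fit it turned Slc27a4 to 0.11 and Acsl3 to -0.076. Cd36 (0.55), Acsl5 (0.17) and Plin3 (0.051) kept under this block the direction they had without swimming 5, opposite to the full comparison.

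Other settings without swimming 5, added after the data were seen, turned genes with differences near 0. Leaving out swimming 2 as well gave 0.038 for Fabp1 and -0.026 for Acsl3. Leaving out the pancreas-rich arrays gave 0.019 for Fabp1, -0.11 for Acsl3 and -0.025 for Plin3. Median scaling gave 0.054 for Slc27a4 and 0.044 for Scp2, cyclic loess 0.0012 for Slc27a4, and averaging 0.011 for Scp2. The share of probes reading higher was 49.4%, and 34.1% with the authors' processed values floored at 16, where many values tie. The use of other probes of a gene was not run, as each gene had 1.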
